A study of Homo sapiens with 12 samples.

Results

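The long noncoding RNAs MALAT1, NEAT1, TUG1, GAS5, SNHG1, H19 and HOTAIR were examined, which are 7 of the 23368 gene symbols counted in the series. They were taken by name from the gene table, and the set was selected on 1 measured pattern, the lower level of MALAT1 with the collagen mimic GFOGER than with the laminin mimic IKVAV in each of 2 breast cancer cell lines. The MALAT1 values that carry this pattern are therefore given below as a description without a test, whereas the other 6 RNAs were tested between the peptides and all 7 between the lines. The cells were MDA-MB-231, an ER- line of the basal subtype, and T47D, an ER+ line of the luminal A subtype, each a single established line without an engineered allele. Cells of each line were held in PEG hydrogels whose crosslinker can be cut by matrix metalloproteinases, with either the GFOGER or the IKVAV peptide attached. RNA was taken on day 3, after 20 min of digestion with collagenase, from 3 gels pooled for each replicate, and all 4 conditions share this matrix, time and digestion. Libraries of polyadenylated RNA numbered 3 for T47D with either peptide, 3 for MDA-MB-231 with GFOGER, and 2 for MDA-MB-231 with IKVAV, where a further replicate was not analysed here.

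Long noncoding RNAs are long transcripts without a known protein product, and several of the most abundant stay in the nucleus. MALAT1 lies in nuclear speckles, the bodies that store splicing factors, and NEAT1 is the scaffold of paraspeckles, which hold RNA-binding proteins and edited RNAs. TUG1 is a widely expressed, partly nuclear RNA. GAS5 and SNHG1 are host genes whose introns carry small nucleolar RNAs (snoRNAs) that guide modification of ribosomal RNA, and their spliced exons are short-lived because they are removed by nonsense-mediated decay. H19 is an imprinted RNA of the IGF2 locus and the precursor of a microRNA, and HOTAIR is transcribed from the HOXC cluster and is best known for its association with Polycomb repressive complex 2.

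The 11 libraries held between 14338238 and 18452145 counts, so that 3 counts corresponded to 0.163 to 0.209 CPM, which are counts scaled to a library total of 1000000. Of the 8 luminal markers, all passed the test as higher in T47D cells, among them ESR1 and CDH1. Of the 6 mesenchymal markers, 5 passed as higher in MDA-MB-231 cells, and SPARC, at a mean of 0.308 to 1.67 CPM in the 4 conditions, went the other way and passed as lower there. The summed level of 6 markers of other cells was 18.8 to 24.5 CPM for MDA-MB-231 with GFOGER, 31.1 to 31.6 CPM with IKVAV, and 52.7 to 62.6 CPM for T47D, almost all of it COL1A1 and, for MDA-MB-231 only, PECAM1. CD3E, DCN, PTPRC and VWF were at or near 0. Both COL1A1 and PECAM1 were lower with GFOGER in MDA-MB-231 cells, and their part in the results below was not tested. T47D IKVAV replicate 3 stood apart from the other libraries of its condition, with a mean chi-square per gene of 16.9 and 17.9 against replicates 2 and 1, where these differed from each other by 5.50. MDA-MB-231 GFOGER replicate 3 differed from its replicates by 16.4 and 18.6, where those differed from each other by 2.51. The library totals implied by the deposited RPKM values fell into 2 sets, one of 5 libraries at 5191201 to 5774966 and one of 6 at 19898878 to 22840524, and the lower set was made up of all 3 T47D GFOGER libraries, T47D IKVAV replicate 3 and MDA-MB-231 IKVAV replicate 1.

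MALAT1 was the most abundant of the 7 RNAs by count. Its entry covers chr11:65265233-65273939 on the plus strand of hg19 and has no intron. The end of the gene is shown because the libraries were made from polyadenylated RNA, whereas mature MALAT1 is cut from its precursor at this place and has no added tail. In the 153 bases at chr11:65273469-65273621, the capitals mark runs of at least 4 T and then the longest run of A in the entry, 13 bases, which is the genome-encoded A tract near the end of the mature RNA. The tRNA-like small RNA that is cut off begins shortly after it.
MALAT1 3′ end: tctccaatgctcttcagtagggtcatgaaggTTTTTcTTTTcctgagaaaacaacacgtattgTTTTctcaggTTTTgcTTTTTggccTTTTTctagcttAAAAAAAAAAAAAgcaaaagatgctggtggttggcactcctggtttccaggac
The counted entry runs 358 bases beyond the A tract, and its last 60 bases hold the hexamer AATAAA, the usual signal for polyadenylation. That hexamer stood in the last 60 bases of all 7 entries, read on the strand of the gene, and of 57.7% of 19442 entries of the table. The ends of NEAT1 and TUG1 are printed beside it, with AATAAA in capitals.
MALAT1, chr11:65273880-65273939: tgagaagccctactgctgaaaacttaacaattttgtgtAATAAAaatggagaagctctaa
NEAT1, chr11:65193944-65194003: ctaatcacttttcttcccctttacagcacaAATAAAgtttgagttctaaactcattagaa
TUG1, chr22:31375321-31375380: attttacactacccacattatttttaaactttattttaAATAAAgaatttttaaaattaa

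MALAT1 was lower with GFOGER than with IKVAV in each cell line, which is the pattern the RNA was chosen by. In MDA-MB-231 cells its level was 933, 1083 and 1041 CPM with GFOGER and 1650 and 1318 CPM with IKVAV. In T47D cells it was 2265, 2104 and 2803 CPM with GFOGER and 4233, 3495 and 3483 CPM with IKVAV. The highest GFOGER library lay below the lowest IKVAV library in both lines, and every T47D library lay above every MDA-MB-231 library. Across all genes 30.7% in MDA-MB-231 and 7.73% in T47D cells lay lower with GFOGER in this way. As a description, the fitted log2 fold change of GFOGER over IKVAV was -0.55 ± 0.095 (SE) for MDA-MB-231 and -0.64 ± 0.11 for T47D, or levels 1.46-fold and 1.56-fold lower. Their difference, the interaction, was 0.10 ± 0.16 on the log2 scale, and changed sign to -0.06 without MDA-MB-231 IKVAV replicate 2 and to -0.008 without T47D IKVAV replicate 1. The 2 MDA-MB-231 IKVAV libraries differed from each other, and without replicate 1 the value in that line was -0.38. Within the lower set of RPKM totals, the T47D difference was -0.54 with 1 IKVAV library, and within the upper set the MDA-MB-231 difference was -0.37, also with 1 IKVAV library. In these bulk libraries, fewer transcripts per cell and fewer cells that express the RNA cannot be told apart.

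Of all counts, MALAT1 took 0.09% to 0.105% where it was lowest, in MDA-MB-231 with GFOGER, and 0.351% to 0.435% where it was highest, in T47D with IKVAV. By mean CPM it ranked number 71 among all genes in the former and number 5 in the latter. The difference between the cell lines was not used in choosing it. MALAT1 was 2.43-fold lower in MDA-MB-231 than in T47D cells (log2 fold change -1.28 ± 0.084, adjusted p = 1.32e-11), and the groups did not overlap. In that direction 32.8% of all genes were without overlap. The difference was -1.22 with the GFOGER libraries alone and -1.32 with the IKVAV libraries alone.

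**Figure D1:**
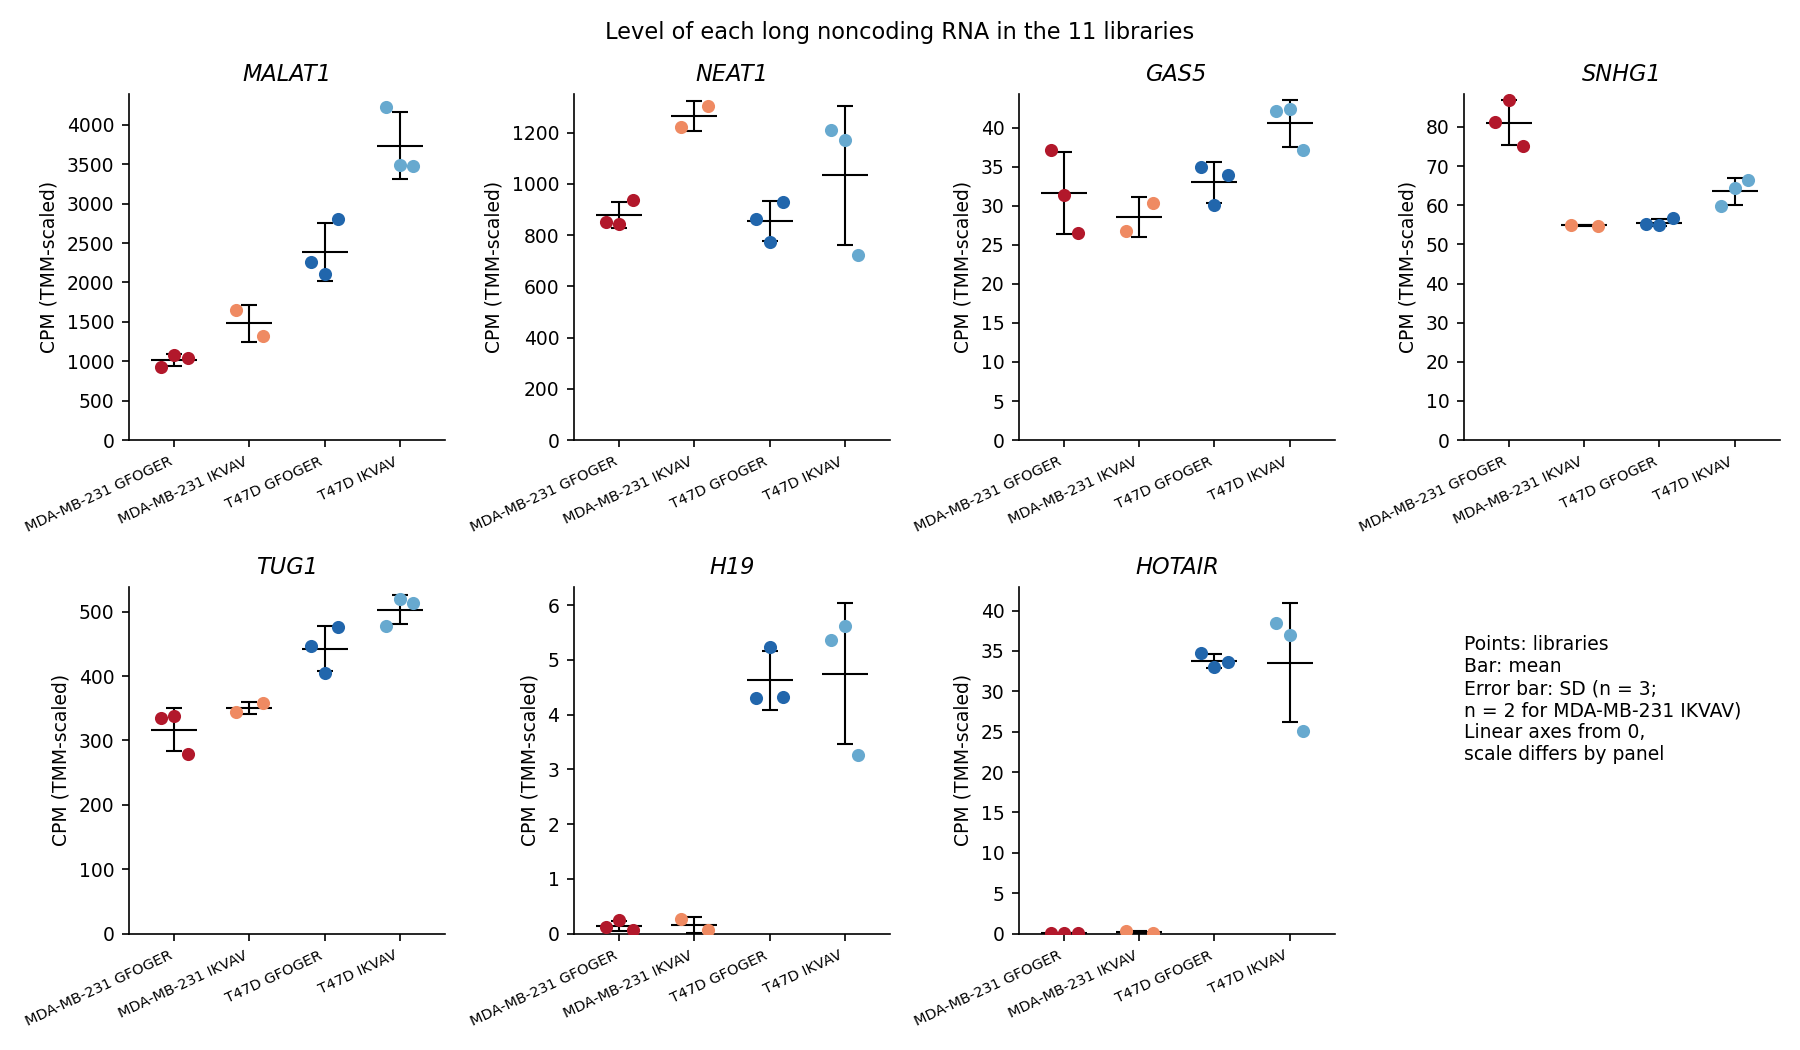
Level of each RNA in CPM scaled by TMM (vertical axis, linear from 0, own scale in each panel) in the 4 conditions (horizontal axis), with 1 point per library and the mean and SD as bars. MALAT1 lay lower with GFOGER in both lines, and SNHG1 was highest in MDA-MB-231 cells with GFOGER. T47D IKVAV replicate 3 was the lowest point of its group for NEAT1, GAS5, H19 and HOTAIR, and narrowly for MALAT1. H19 and HOTAIR were near 0 in the MDA-MB-231 libraries.

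NEAT1 shared the lower level with GFOGER in MDA-MB-231 cells. Its entry, chr11:65190269-65194003, is 3735 bases long and has the extent of the short isoform, while the annotation carries the gene on beyond it. Reads of the long isoform, which builds paraspeckles, are counted where they fall in this stretch, so the values cannot separate the isoforms. In MDA-MB-231 cells NEAT1 stood at 852, 845 and 937 CPM with GFOGER and 1223 and 1306 CPM with IKVAV. The groups did not overlap, and NEAT1 was 1.45-fold lower with GFOGER (log2 fold change -0.53 ± 0.078, adjusted p = 4.65e-05, and -0.58 without GFOGER replicate 3). Across all genes 30.7% lay lower without overlap in this line. In T47D cells it stood at 862, 775 and 931 CPM with GFOGER and 1209, 1172 and 721 CPM with IKVAV. Here the groups overlapped, because IKVAV replicate 3 was the lowest of the 6 libraries, and the difference of -0.27 ± 0.15 did not pass the test (adjusted p = 0.519). Without that library it was -0.48 ± 0.076 (adjusted p = 0.000485), without IKVAV replicate 1 it was -0.14 (adjusted p = 0.782) and without IKVAV replicate 2 it was -0.17 (adjusted p = 0.901). Within the lower set of RPKM totals, which holds the 3 GFOGER libraries and IKVAV replicate 3, the T47D value was 0.25, and within the upper set the MDA-MB-231 value was -0.57. With the set as a term in the fit, the interaction of cell line and peptide was -0.82 (adjusted p = 0.00911). Without the term it was -0.25 ± 0.20 (adjusted p = 0.387). The set term rests on the IKVAV libraries alone, since the GFOGER libraries of each line all fall in the same set. In T47D cells replicate 3 is the only IKVAV library of the lower set, and in MDA-MB-231 cells replicate 1 is.

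NEAT1 did not pass as different between the cell lines (0.16 ± 0.098, adjusted p = 0.128). It was higher in MDA-MB-231 cells at 0.23 (adjusted p = 0.024) without T47D IKVAV replicate 1 and at 0.22 (adjusted p = 0.0473) without replicate 2. MALAT1 and NEAT1 are neighbours, and most of the 22 and 23 genes within 250 kb of each were the same. Of the 20 tested around each RNA in MDA-MB-231 cells, 5 were lower and 2 higher with GFOGER. That is 35%, below the 42.9% of all genes that passed there. LTBP3, which binds latent TGF-beta, was the most changed (-2.25 ± 0.10, adjusted p = 1.29e-10), at 42.0 CPM with GFOGER and 198 CPM with IKVAV. FAM89B followed at -1.23 ± 0.15 (adjusted p = 9.77e-06) and DPF2, a chromatin remodelling subunit, at -0.50 ± 0.11 (adjusted p = 0.00184). In T47D cells 0 of 19 genes around MALAT1 and 0 of 18 around NEAT1 passed the test, where 0.0440% of all genes did.

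TUG1, at chr22:31365634-31375380, moved less. The MDA-MB-231 libraries were at 334, 338 and 279 CPM with GFOGER and 344 and 358 CPM with IKVAV. The T47D libraries were at 447, 406 and 476 CPM with GFOGER and 477, 519 and 513 CPM with IKVAV. The GFOGER libraries lay below the IKVAV libraries in both lines without passing the test, at -0.15 ± 0.097 (adjusted p = 0.216) and -0.18 ± 0.079 (adjusted p = 0.409). Without MDA-MB-231 GFOGER replicate 3 the former was -0.06 (adjusted p = 0.22). The interval of 2 SE ran from -0.35 to 0.04 in the former line and from -0.34 to -0.03 in the latter. TUG1 was 1.42-fold lower in MDA-MB-231 than in T47D cells (-0.50 ± 0.064, adjusted p = 4.12e-07), with no overlap between the lines. In that direction 32.8% of all genes were without overlap. SMTN, the smooth muscle protein smoothelin, was the gene most changed within 250 kb of TUG1 in MDA-MB-231 cells, and it was higher with GFOGER (1.39 ± 0.17, adjusted p = 6.69e-06).

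SNHG1 rose with GFOGER in MDA-MB-231 cells, the only one of the 4 RNAs tested there that did. Its entry, chr11:62619460-62623360 on the minus strand, holds 8 snoRNA genes and starts 124 bases from SLC3A2, which is read in the other direction and encodes the heavy chain of amino acid transporters of the cell surface. The 123 bases between the starts, chr11:62623361-62623483, are shown on the SNHG1 strand with CG pairs in capitals because it separates the starts of these neighbours. Its part in the level of either gene was not tested. It holds 14 CG pairs, or 11.4 per 100 bases, a density that 14.1% of 35116 RefSeq promoter windows (GRCh38.p14) reached. These windows were not matched to the stretch in length, so the share does not show whether it is unusual. The start of SNHG1 and that of GAS5 follow, each from 10 bases before to 30 bases after the annotated start, with the longest run of C and T in capitals. A run of this kind at the first transcribed base is known from mRNAs of the translation machinery and from host RNAs of snoRNAs. Relative to the annotated start, the GAS5 run begins at -3 and spans it, and the SNHG1 run begins at 7. Runs were sought only near the starts, and no share over other genes was taken, so their nearness is not a result.
SNHG1 to SLC3A2: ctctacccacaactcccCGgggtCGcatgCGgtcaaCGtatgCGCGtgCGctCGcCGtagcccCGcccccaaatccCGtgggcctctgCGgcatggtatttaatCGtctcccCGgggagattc
SNHG1 start, chr11:62623331-62623370: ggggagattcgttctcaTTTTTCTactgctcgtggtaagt
GAS5 start, chr1:173837096-173837135: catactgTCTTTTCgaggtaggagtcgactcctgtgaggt

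In MDA-MB-231 cells SNHG1 was at 81.3, 86.8 and 75.2 CPM with GFOGER and at 54.9 and 54.7 CPM with IKVAV. The groups did not overlap, and SNHG1 rose 1.47-fold with GFOGER (0.56 ± 0.11, adjusted p = 0.000648, and 0.61 without GFOGER replicate 3). Across all genes 32.5% lay higher without overlap in this line. In T47D cells it was at 55.2, 54.9 and 56.7 CPM with GFOGER and at 59.7, 64.5 and 66.5 CPM with IKVAV. There the GFOGER libraries lay below the IKVAV libraries, and the difference of -0.19 ± 0.085 did not pass the test (adjusted p = 0.416). The interaction of cell line and peptide was 0.76 ± 0.13 on the log2 scale (adjusted p = 0.000456), so the response of SNHG1 differed between the lines. SLC3A2, on the other side of that stretch, was at 208, 215 and 222 CPM with GFOGER and at 163 and 167 CPM with IKVAV in MDA-MB-231 cells. It too was higher with GFOGER there (0.37 ± 0.088, adjusted p = 0.00275), was -0.11 ± 0.078 in T47D cells (adjusted p = 0.627), and had an interaction of 0.49 ± 0.11 (adjusted p = 0.00436). SLC3A2 was named for its position after the values were seen.

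SNHG1 was slightly higher in MDA-MB-231 than in T47D cells when both peptides were averaged (0.17 ± 0.065, adjusted p = 0.0241), with overlapping libraries. That difference was carried by GFOGER. It was 0.56 (adjusted p = 3.22e-05) in the GFOGER libraries alone and -0.20 (adjusted p = 0.0935) in the IKVAV libraries alone. It also missed the threshold without MDA-MB-231 GFOGER replicate 2 (0.14, adjusted p = 0.0613), MDA-MB-231 IKVAV replicate 2 (0.16, adjusted p = 0.0753) or T47D IKVAV replicate 1 (0.15, adjusted p = 0.0575). Upper-quartile normalization gave 0.08 (adjusted p = 0.249), library size alone 0.09 (adjusted p = 0.212) and no filter on low counts 0.155 (adjusted p = 0.0723). Of 31 genes tested within 250 kb of SNHG1 in MDA-MB-231 cells, 7 were higher and 5 lower with GFOGER. That is 38.7%, near the 42.9% of all genes that passed there. C11orf48 was at 0.78 ± 0.11 (adjusted p = 5.01e-05), WDR74, a ribosome biogenesis factor, at 0.56 ± 0.12 (adjusted p = 0.00155), and ZBTB3 at -0.73 ± 0.19 (adjusted p = 0.00635).

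**Figure D2:**
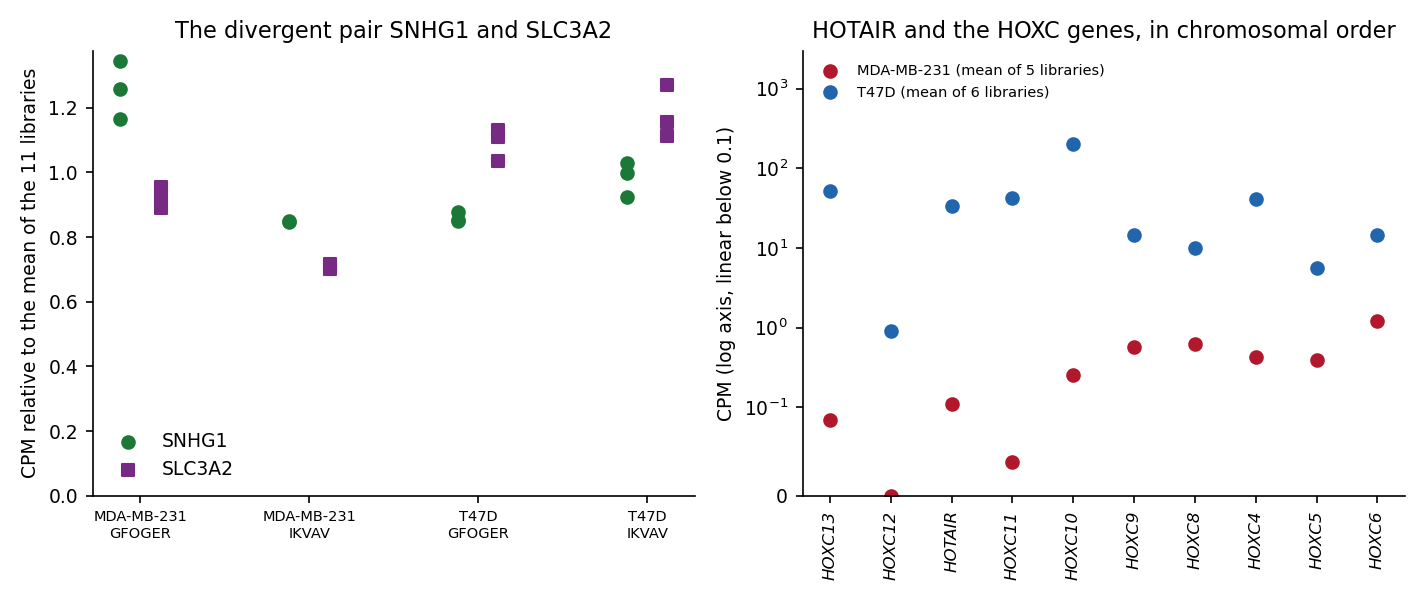
Left, CPM of SNHG1 (circles) and SLC3A2 (squares) in each library relative to the mean of the 11 libraries (linear axis from 0). In MDA-MB-231 cells both were higher with GFOGER than with IKVAV, while SLC3A2 was higher in T47D cells than in either. Right, mean CPM of HOTAIR and of the HOXC genes in the 5 MDA-MB-231 and the 6 T47D libraries, in chromosomal order (log axis, linear below 0.1), where each gene lay higher in T47D cells.

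GAS5, at chr1:173833039-173837125 on the minus strand, holds 10 snoRNA genes and overlaps the entry LOC100506046, which had 3 to 26 counts. The other host RNA, SNHG1, rose in MDA-MB-231 cells, but GAS5 stood at 37.1, 31.4 and 26.5 CPM with GFOGER and at 26.8 and 30.4 CPM with IKVAV. The libraries overlapped, and the difference of 0.14 ± 0.15 did not pass the test (adjusted p = 0.466), and single libraries moved it either way. It was 0.26 (adjusted p = 0.0345) without MDA-MB-231 GFOGER replicate 3, 0.01 (adjusted p = 0.969) without GFOGER replicate 1, 0.05 (adjusted p = 0.866) without IKVAV replicate 1 and 0.24 (adjusted p = 0.41) without IKVAV replicate 2. In T47D cells GAS5 stood at 34.9, 30.1 and 34.0 CPM with GFOGER and at 42.1, 42.4 and 37.1 CPM with IKVAV. The groups did not overlap, and the difference of -0.30 ± 0.10 did not pass the test over all genes (adjusted p = 0.322). Without IKVAV replicate 3 it was -0.36 ± 0.10 (adjusted p = 0.0286). The interaction was 0.44 ± 0.18 (adjusted p = 0.0895), and 0.55 (adjusted p = 0.0157) without MDA-MB-231 GFOGER replicate 3.

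GAS5 was 1.22-fold lower in MDA-MB-231 than in T47D cells (-0.28 ± 0.091, adjusted p = 0.0075), with overlapping libraries. The value was -0.05 (adjusted p = 0.721) with the GFOGER libraries alone, -0.49 (adjusted p = 0.00328) with the IKVAV libraries alone, and -0.22 (adjusted p = 0.0721) without MDA-MB-231 IKVAV replicate 1. Of the 18 snoRNAs inside GAS5 and SNHG1, 16 were tested in MDA-MB-231 cells, and 5 of them were higher with GFOGER and 0 lower. That is 31.25%, where 42.9% of all genes passed, with 21.4% higher and 21.4% lower. Mature snoRNAs are short and carry no poly(A) tail, and the counts here were low. SNORD76, inside GAS5, had 52 to 122 counts and was at 0.69 ± 0.23 (adjusted p = 0.0234). Whether such counts come from snoRNAs or from unspliced host RNA was not tested.

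H19 and HOTAIR were T47D transcripts. H19, at chr11:2016406-2019065 on the minus strand, had 2, 4 and 1 counts in the MDA-MB-231 libraries with GFOGER, then 4 and 1 with IKVAV, at or next to the floor of 3 counts. In T47D cells it had 72, 88 and 76 counts with GFOGER and 79, 92 and 55 with IKVAV. The summed counts, 12 in 5 libraries and 462 in 6, gave a level 32.4-fold higher in T47D cells, with an exact 95% interval of 18.3 to 63.1 that covers counting error only. The fitted difference had an adjusted p of 1.94e-11. Between the peptides H19 was tested in T47D alone, since the filter on low counts removed it from the other line. In T47D cells it was at 4.31, 5.24 and 4.33 CPM with GFOGER and at 5.36, 5.61 and 3.27 CPM with IKVAV. These overlapped, and the difference was -0.03 ± 0.22 (adjusted p = 0.976, interval of 2 SE -0.48 to 0.41). For H19 it was -0.25 (adjusted p = 0.469) without IKVAV replicate 3 and 0.50 (adjusted p = 0.351) with the set of RPKM totals as a term.

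The microRNA gene MIR675 had 0 counts in all 11 libraries, and mature microRNAs have no tail by which a poly(A) library could capture them. MIR675 lies inside H19, and how reads that fall in both genes were counted is not known here, so the 0 sets no bound on its level. Its 2 mature products are shown with the seed, bases 2 to 8, in capitals, because their seeds differ and H19 is their precursor.
hsa-miR-675-5p: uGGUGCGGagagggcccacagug
hsa-miR-675-3p: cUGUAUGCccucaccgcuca
Of 6 genes tested within 250 kb of H19 between the lines, 5 were lower in MDA-MB-231 cells and 1 was higher. Across all genes 84.5% differed between the lines, with 42.5% lower and 42.0% higher there. SYT8 was at -7.17 ± 0.17 (adjusted p = 5.62e-19) and IFITM10 at -1.71 ± 0.091 (adjusted p = 4.08e-13). CTSD, the lysosomal protease cathepsin D, was lower with GFOGER in MDA-MB-231 cells (-0.94 ± 0.088, adjusted p = 3.68e-07). All 8 tested genes of the H19 and IGF2 axis differed between the lines, where 84.5% of all genes did. In MDA-MB-231 cells 6 were higher, among them IGF2BP3, an RNA-binding protein (6.78 ± 0.12, adjusted p = 4.51e-21), and 2 were lower.

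HOTAIR, at chr12:54356096-54362515 on the minus strand, had 1, 1 and 1 counts in the MDA-MB-231 libraries with GFOGER, then 4 and 2 with IKVAV, and was not tested there between the peptides. In T47D cells it was at 34.7, 33.0 and 33.6 CPM with GFOGER and at 38.5, 37.0 and 25.1 CPM with IKVAV. IKVAV replicate 3 was again the lowest, the groups overlapped, and the difference was 0.01 ± 0.14 (adjusted p = 0.986, interval of 2 SE -0.27 to 0.29). Without that library HOTAIR was at -0.16 ± 0.098 (adjusted p = 0.344), and with the set of RPKM totals as a term at 0.43 ± 0.13 (adjusted p = 0.0814). Within the lower set, GFOGER averaged 33.8 CPM and IKVAV replicate 3 stood at 25.1 CPM. Summed counts of 9 in 5 libraries and 3321 in 6 gave a level 310.2-fold higher in T47D cells, with an exact 95% interval of 163 to 679 for counting error, and the fitted difference had an adjusted p of 6.7e-18.

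The HOXC genes around HOTAIR encode homeodomain transcription factors and showed the same order of the lines. HOXC10 had a summed count of 21 in MDA-MB-231 and 20289 in T47D cells, HOXC11 of 3 and 4211, and HOXC13 of 7 and 5082. HOXC12 was at 0 in all MDA-MB-231 libraries and had 8 to 22 counts in T47D cells. HOXC6, the highest of them in MDA-MB-231 cells, had a summed count of 101 and 1427. HOXC4, HOXC5 and HOXC6 share a start in the table, so their reads may be split between them. Of 15 genes tested within 250 kb of HOTAIR, 14 were lower and 1 higher in MDA-MB-231 cells. CALCOCO1 was the 1 that was higher (0.44, adjusted p = 9.91e-05). Across all genes 42.5% were lower and 42.0% higher there. Between the peptides in T47D cells, 0 of these 15 passed the test. HOTAIR is known to bind the proteins of Polycomb repressive complex 2 and the LSD1 complex. Of 12 tested genes of these complexes, 10 differed between the lines, where 84.5% of all genes did. T47D cells had the lower level of 4 of the 10, among them JARID2 (2.06 ± 0.059, adjusted p = 1.27e-17). They had the higher level of 6, among them RBBP7 (-1.59 ± 0.081, adjusted p = 2.06e-13).

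Over the 6 RNAs other than MALAT1, 4 passed the filter in MDA-MB-231 cells and 2 of them the test between the peptides, NEAT1 lower and SNHG1 higher. Across all 14092 genes tested in that line 42.9% passed, with 21.4% higher and 21.4% lower, and a 2-fold difference was reached by 9.57% of genes and by 0 of these RNAs. A share of 2 in 4 is near that background. In T47D cells 0 of 6 passed, where 0.0440% of 13642 genes did, 0.0220% in each direction, and 0.0220% at 2-fold. At an unadjusted p below 0.05 there were 3 of the 6, GAS5, SNHG1 and TUG1, and 1531 of all 13642 genes. Limma voom with sample quality weights called 2, NEAT1 and GAS5, and 1508 genes in all, and DESeq2 called 0 of the 6 and 78 genes in all. GAS5, SNHG1 and TUG1 lay lower with GFOGER in T47D cells without overlap, which held for 7.73% of all genes tested in that line, against 30.7% in MDA-MB-231 cells with its 5 libraries. Without T47D IKVAV replicate 3, 2 of 6 passed, NEAT1 and GAS5, and 7.62% of all genes did. The interaction passed for 1 of 6, where 21.0% of genes passed and 6.42% also exceeded 2-fold. Between the cell lines 6 of 7 passed, of which SNHG1 was higher in MDA-MB-231 and 5 were lower, and 84.5% of 15320 genes did, with 42.0% higher and 42.5% lower. H19, HOTAIR and MALAT1 exceeded 2-fold there, as did 46.3% of genes.

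**Figure D3:**
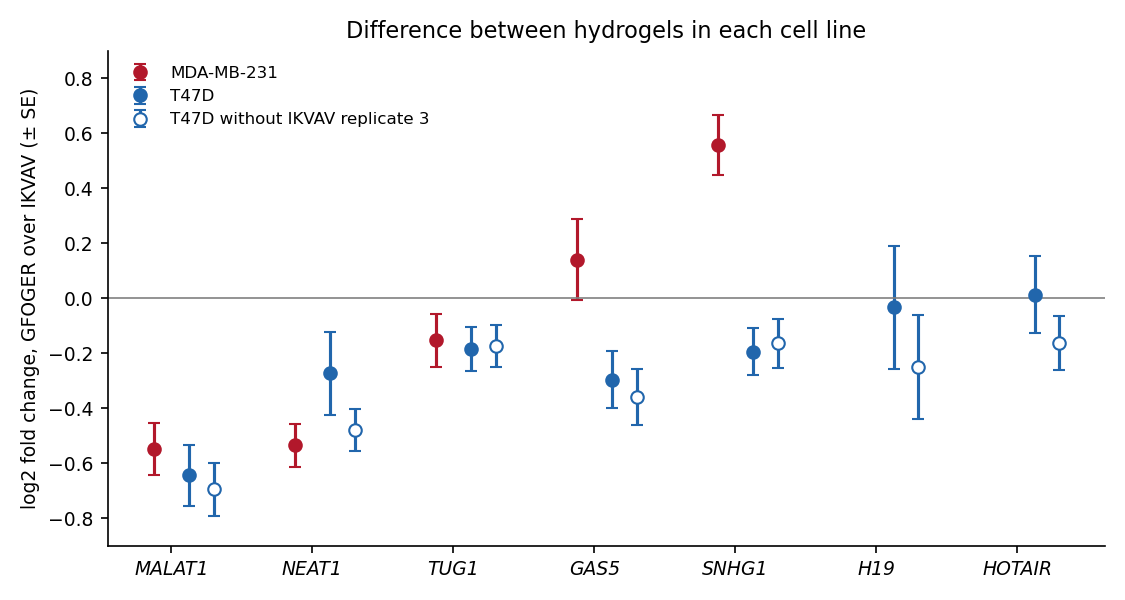
Log2 fold change of GFOGER over IKVAV with its SE for each RNA in MDA-MB-231 cells (red) and T47D cells (blue), and in T47D cells without IKVAV replicate 3 (open circles). SNHG1 stood at 0.56 in MDA-MB-231 and -0.19 in T47D cells, NEAT1 moved from -0.27 to -0.48 in T47D cells without that library, and H19 and HOTAIR have no point in MDA-MB-231 cells. The MALAT1 values are shown as a description.

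Levels of different RNAs were compared per kilobase of the counted length. In MDA-MB-231 cells with GFOGER the order was NEAT1 (235 ± 13.7 CPM per kb, SD, n = 3), MALAT1 (117 ± 8.91), SNHG1 (72.5 ± 5.21), GAS5 (50.1 ± 8.36) and TUG1 (44.6 ± 4.67), and GAS5 and TUG1 did not differ beyond their spread. H19 and HOTAIR were under 0.12 CPM per kb in every library of this line. In T47D cells MALAT1 came first, at 274 ± 42.0 CPM per kb with GFOGER and 429 ± 49.4 with IKVAV, ahead of NEAT1 at 229 ± 20.8 and 277 ± 72.8. The libraries of the pair overlapped with GFOGER and not with IKVAV. HOTAIR, at 14.5 ± 0.364 CPM per kb with GFOGER, and H19, at 2.00 ± 0.230, came last. The length of NEAT1 is that of the short isoform, so reads of the long one are in its level only where they fall within that length.

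Genes of the bodies and pathways around these RNAs were then counted, from lists chosen with earlier results of these data known and without the 7 RNAs themselves. Among 15 other snoRNA host genes tested in MDA-MB-231 cells, 7 were higher and 0 lower with GFOGER. Their median log2 fold change was 0.43, where that of all genes was 0.004. The share that passed, 46.7%, was near the 42.9% of all genes, with 21.4% higher and 21.4% lower. SNHG3 (0.90 ± 0.12, adjusted p = 1.22e-05), DANCR (0.64 ± 0.15, adjusted p = 0.00304) and SNHG8 (0.54 ± 0.14, adjusted p = 0.00526) led. In T47D cells 0 of 15 passed and the median was -0.04, also 0 of 15 without IKVAV replicate 3. Across all genes 0.0440% and 7.62% passed in these fits. Of 16 nonsense-mediated decay factors, 3 passed in MDA-MB-231 cells, 2 of them higher. That share, 18.75%, was below the one of all genes. The helicase UPF1, the central factor, was lower (-0.29 ± 0.096, adjusted p = 0.0233) and MAGOH, of the exon junction complex, was higher (0.55 ± 0.12, adjusted p = 0.00143).

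Among the nuclear RNA exosome and its cofactors, which degrade nuclear transcripts, 11 of 20 were higher and 1 lower with GFOGER in MDA-MB-231 cells (median 0.32). That is 60%, where 42.9% of all genes passed, with 21.4% higher and 21.4% lower. The core subunits EXOSC8 (0.81 ± 0.13, adjusted p = 0.000108), EXOSC9 (0.62 ± 0.12, adjusted p = 0.000478) and EXOSC5 (0.56 ± 0.14, adjusted p = 0.00376) were at the top. Of 15 genes for MALAT1 3′ end processing and stability, 7 were higher and 0 lower (median 0.29), a share of 46.7%, near that of all genes. The most changed, RPP21 (0.91 ± 0.24, adjusted p = 0.00551), POP5 (0.76 ± 0.16, adjusted p = 0.00124) and RPP40 (0.68 ± 0.16, adjusted p = 0.00304), are protein subunits of RNase P, the enzyme that cuts the MALAT1 precursor. Of 21 paraspeckle proteins, 7 were higher and 0 lower (median 0.11), with HNRNPH3 (0.60 ± 0.089, adjusted p = 5.33e-05) first. That share, 33.3%, was below the one of all genes. In T47D cells 0 genes of these 3 lists passed. Without IKVAV replicate 3, the exosome list had 2 lower, the MALAT1 processing list 1 lower and the paraspeckle list 0. Across all genes 7.62% passed in that fit.

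Of 25 nuclear speckle proteins, which share their compartment with MALAT1, 5 passed in MDA-MB-231 cells, 3 of them higher (median 0.02). Among the higher ones were U2AF1 (0.44 ± 0.10, adjusted p = 0.00262) and SRSF3 (0.43 ± 0.094, adjusted p = 0.00149). The share that passed was 20%, where 42.9% of all genes did. Coding transcripts known to be kept in the nucleus were counted as well, since MALAT1 and NEAT1 are nuclear. In MDA-MB-231 cells 5 of 12 were lower and 1 higher with GFOGER (median -0.20). That is 50%, where 42.9% of all genes passed, with 21.4% lower and 21.4% higher. The kinase gene CLK4 fell most (-1.03 ± 0.14, adjusted p = 1.85e-05), before OGT (-0.53 ± 0.092, adjusted p = 0.00025) and CCNL2 (-0.44 ± 0.10, adjusted p = 0.00302). SRSF5 was the higher one. In T47D cells 0 of 12 passed, at a median of -0.24. Without IKVAV replicate 3, 6 of 12 were lower there, NKTR at -0.53 (adjusted p = 0.000183) and CLK1 at -0.52 (adjusted p = 0.00884) among them. Across all genes 7.62% passed in that fit.

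**Figure D4:**
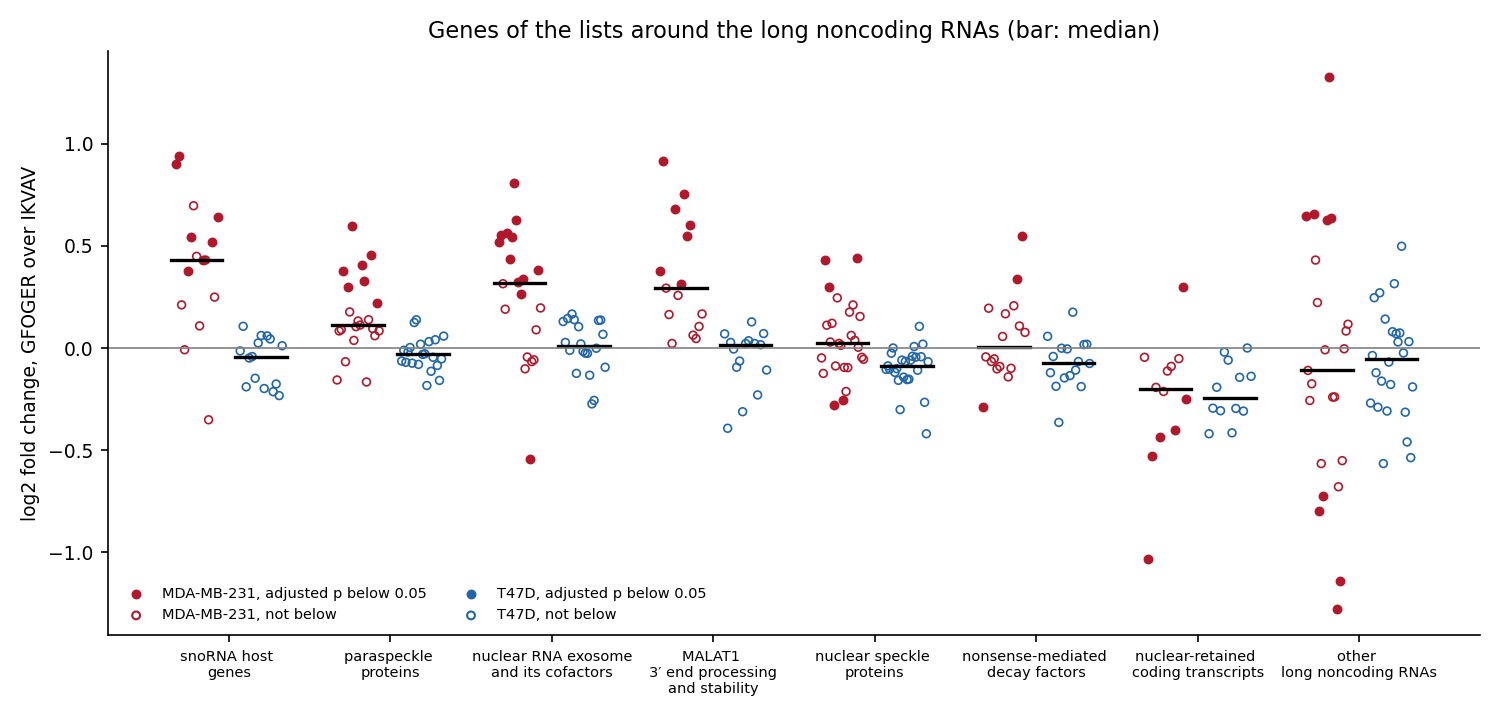
Log2 fold change of GFOGER over IKVAV of each gene in 8 lists (1 point per gene, the black bar is the median of the list) in MDA-MB-231 cells (red) and T47D cells (blue), filled where the adjusted p was below 0.05. Most filled points of the first 4 lists lie above 0 in MDA-MB-231 cells, nuclear-retained transcripts lie mostly below 0 in both lines, and no T47D point is filled.

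Of 23 other long noncoding RNAs tested in MDA-MB-231 cells, 5 were higher and 4 lower with GFOGER (median -0.11). That is 39.1%, near the 42.9% of all genes that passed there. UCA1 rose most, from 55.7 CPM with IKVAV to 140 CPM with GFOGER (1.33 ± 0.12, adjusted p = 1.94e-07). HCP5 (-1.28 ± 0.13, adjusted p = 8.24e-07) and LINC00261 (-1.14 ± 0.13, adjusted p = 2.76e-06) fell most. In T47D cells 0 of 24 passed, and UCA1 had a mean of at most 1.86 CPM. Between the lines 24 of 28 passed, 12 in each direction, a share of 85.7% where 84.5% of all genes passed. DSCAM-AS1, an RNA of ER+ cells, was at 116 and 92.9 CPM in T47D with GFOGER and IKVAV and at or below 0.097 CPM in the other line (adjusted p = 2.2e-20). MIR100HG was at 26.2 and 22.3 CPM in MDA-MB-231 with GFOGER and IKVAV and at or below 0.079 CPM in T47D (adjusted p = 1.02e-17). RNAs listed as without a poly(A) tail, which the library selects against, were summed. They reached 166 to 174 CPM with GFOGER and 136 to 152 CPM with IKVAV in MDA-MB-231, and 302 to 324 and 327 to 380 CPM in T47D. The list includes histone genes. With GFOGER and IKVAV, HIST2H2BE was at 10.8 and 18.5 CPM in MDA-MB-231 and 60.3 and 71.9 CPM in T47D. HIST1H1C was at 44.9, 34.7, 45.4 and 45.7 CPM in the same order. Whether histone reads came from RNA without a tail was not tested. Of 13 RNAs of this list tested in MDA-MB-231 cells, 4 were higher and 1 lower with GFOGER, or 38.5% against 42.9% of all genes. Between the lines 81.25% of 16 passed, against 84.5% of all genes. There 12 were lower in MDA-MB-231 cells, the direction of MALAT1. The part of these RNAs in the MALAT1 values was not tested.

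The genes most alike in pattern were found by Pearson's r of log2 CPM over the 11 libraries, among 11933 genes. These values are descriptions, since the libraries share 2 cell lines and any gene that separates the lines will correlate. For SNHG1 the closest was TAF1D (r = 0.984), itself a host of snoRNAs, followed by CSNK2A2 (0.974) and the chaperone gene HSP90AB1 (0.971). For NEAT1, which does not separate the lines, CBFA2T2 (0.948) and ZNF493 (0.933) were among the closest, and ZNF493 averaged 7.84 CPM for MDA-MB-231 with GFOGER against 20.9 CPM with IKVAV. MALAT1 was closest to CSPP1 (0.979), ZNF217 (0.973) and VPS13D (0.972), and TUG1 to the splicing factor gene SRSF1 (0.986), with DMXL1 (0.985) also among the closest. GAS5 was closest to C14orf118 (0.929), TPR (0.927) and APC (0.921). H19 was closest to AIM1L (0.996), STEAP4 (0.994) and C11orf31 (0.994), and HOTAIR to ELOVL4, NUPR1 and LOC100128252 (each 0.999), where r mainly records the split between the lines.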

How the data were processed

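RNA was sequenced by the authors as single-end reads from poly(A) libraries, aligned to hg19 with TopHat2 2.1.0 and counted on genes with HTSeq 0.6.1p1, versions per the submitters' processing notes. The strand setting of the counting and the annotation version are not given in the sources used here, so reads of overlapping genes cannot be told apart. The deposited table holds raw read counts and RPKM values by the authors for 24656 entries. All tests used the counts, and from the deposited RPKM values no more than the implied size of each library was taken. For each of 23368 symbols the entry with most counts was kept.

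Libraries were normalized by TMM and filtered with filterByExpr, and edgeR 4.0.16 (R 4.3.3) was used for quasi-likelihood tests with Benjamini-Hochberg adjustment over all genes tested. The peptides were compared in a separate fit for each cell line, and the lines and the interaction in a joint fit of the 4 conditions. A gene passed at an adjusted p below 0.05. CPM values are counts scaled to 1000000 by TMM-adjusted library size, and CPM per kb divides these by the deposited length. Replicates are separate gel pools per the labels, and p-values measure the spread between them. The fits were tested on simulated data. Same-numbered libraries had correlated deviations of -0.060 to 0.017, so replicate numbers did not pair them. Alternatives were DESeq2 1.42.0, limma 3.58.1 (voom), other normalizations and filters, a replicate block, a term for the RPKM totals and leaving out each library. The robust fit was added after the data were seen. The long noncoding RNAs and the gene lists were chosen with earlier results of these data known. Genes were named by a rule: up to 3 per list and comparison with the largest change among those that passed and averaged a log2 CPM of 2 or more, and the 3 most correlated genes. Some genes that this rule names are not reported here.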

Additional observations from a re-analysis of the deposited data

Results flagged for a closer look

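SNHG1 responded differently to the peptides in the 2 cell lines. In MDA-MB-231 cells the difference was 0.56, and 3 of 3 GFOGER libraries lay above both IKVAV libraries, as for 32.5% of all genes. In T47D cells it was -0.19 and did not pass the test (adjusted p = 0.416). There 3 of 3 GFOGER libraries lay below the IKVAV libraries, as for 7.73% of all genes. The interaction of cell line and peptide, a test that 21.0% of all genes passed, was 0.759 on the log2 scale (adjusted p = 0.000456, edgeR). With any 1 library left out it ran from 0.69 to 0.81, with adjusted p from 0.000108 to 0.00752.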

How the results depend on the processing

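Of 449 recalculations of the tested values of these RNAs under other settings, 426 stayed on the same side of the threshold, 13 newly passed, 9 no longer passed, and 1 that had passed changed sign, SNHG1 between the cell lines at -0.197 with the IKVAV libraries alone. Values that had not passed also changed sign. Among them, with the RPKM total set as a term, were NEAT1 in T47D (0.252), H19 in T47D (0.504) and NEAT1 between the lines (-0.003). HOTAIR in T47D did so without IKVAV replicate 3 (-0.162). With a library left out, the interaction reached 1.12 for H19 and -0.0267 for TUG1, from -0.15 and 0.0377. SNHG1 between the lines missed the threshold with upper-quartile normalization (0.0817), library size alone (0.0883) and no filter (0.155). The count of RNAs that passed rose from 0 to 2 in T47D cells with voom quality weights, and the interaction count rose from 1 to 2 with voom quality weights and with the RPKM total set as a term. Leaving out each library gave 2 to 3 in MDA-MB-231 cells, 0 to 2 in T47D cells, 5 to 7 between the lines and 1 to 2 for the interaction, where 2 was reached without MDA-MB-231 GFOGER replicate 3. The MALAT1 interaction, given without a test, ranged from -0.0627 to 0.268 with a library left out, and was negative without MDA-MB-231 IKVAV replicate 2 and, at -0.00768, without T47D IKVAV replicate 1. With the replicate block 3 RNAs passed in MDA-MB-231 cells, GAS5 being added at 0.258, and 5 between the lines, where SNHG1 was at 0.165, and the genes that passed in T47D cells rose from 6 to 38. The count over all genes in T47D cells was 78 with DESeq2, 11 with RLE size factors, 121 with no filter, 32 with all 4 conditions in one fit, 1508 with voom, 345 with the RPKM set term and 15 with the robust fit, and 1 to 1054 with a library left out. In MDA-MB-231 cells it fell from 6040 to 3898 with that term and to 3899 and 3444 without IKVAV replicates 1 and 2, and was 8017 without GFOGER replicate 3. In MDA-MB-231 cells IKVAV replicate 1 is the only library of the lower set, so the set term and leaving it out amount to the same alternative. NEAT1 was at -0.585 and -0.58 with them. GFOGER replicate 3 has no IKVAV partner there, so with the replicate block it adds nothing to the comparison, much as when it is left out. GAS5 was at 0.258 and 0.259 with them. The block also pairs the other libraries by number, so these 2 fits are close but not the same, with 8078 and 8017 genes that passed. Both of each pair are among the 449. The causes of the other changes were not tested. With 2 MDA-MB-231 IKVAV libraries, small differences there are uncertain, and counts of 1 to 4 for H19 and HOTAIR allow no comparison between the peptides in that line.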
